A study of Mus musculus with 10 samples.

Results

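The genes described here attract neutrophils to inflamed tissue, feed their production, or carry those signals into the cell. They are 4 CXC chemokines (Cxcl1, Cxcl2, Cxcl3 and Cxcl5), the growth factor G-CSF (Csf3), the receptors for both (Cxcr2 and Csf3r), and the chemokine and receptor that hold neutrophils in the bone marrow (Cxcl12 and Cxcr4). The 9 members were taken by name from 18099 genes measured on the arrays. The genes were selected by name, and the probe set of each was chosen by its measured mean, as the one naming that gene alone with the highest mean over the 10 arrays. This choice used the level and not the difference between the groups, but the members were put together with earlier results of these data known, the low receptor values with maslinic acid among them. All 9 had a probe set, and the value differed on each of the 10 arrays for all 9.

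The tissue was synovium of the left hind leg of male DBA/1J mice, bought at 5 weeks and labelled as 8 weeks old. Every mouse had collagen antibody-induced arthritis (CAIA), in which a transferred antibody and lipopolysaccharide, not an immune response of the mouse's own, start the joint inflammation: 1 mg of monoclonal antibody against type II collagen on day 8, 25 µg of lipopolysaccharide on day 11, and tissue taken on day 12. The vehicle group (5 mice) received corn oil by mouth, and the maslinic acid group (5 mice) received the same oil with maslinic acid, a triterpene found in olives, at 200 mg/kg per day. Arrays were run on 5 mice chosen out of each larger group, by a criterion the labels do not give, and mice without arthritis were not analysed here, so nothing below says what arthritis itself did to these genes. Each mouse gave 1 Affymetrix array, and the number of arrays limits the precision.

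Chemokines of the Cxcl1, Cxcl2, Cxcl3 and Cxcl5 type carry a glutamate-leucine-arginine motif before their first cysteines and act on Cxcr2, which in mice is the main receptor that guides neutrophils toward a focus of inflammation. They are made by fibroblasts, endothelium and macrophages when interleukin-1, TNF, interleukin-17 or lipopolysaccharide activates NF-kB. The same signals induce G-CSF, which acts through Csf3r to raise neutrophil output from the marrow. Cxcl12 made by marrow stroma holds Cxcr4-bearing neutrophils back, and G-CSF lowers Cxcl12 there. The ligands are thus taken here as made mainly in the tissue, whereas Cxcr2 and Csf3r are carried mainly by the arriving cells. In whole synovium, fewer neutrophils and less receptor RNA per neutrophil cannot be told apart. Which cells held the RNA of any member was not measured.

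The deposited values look like log2 intensities (the array medians lay between 6.7447 and 6.7449), but most probe sets hardly differed between arrays: 93.5% of the 39993 probe sets had a range under 0.001. The scale of a difference is therefore unknown, while its direction is taken as deposited. Values are given below in SDs from the gene's own mean over all 10 arrays, and group differences as Hedges' g, the mean with maslinic acid minus the mean with vehicle, divided by the within-group SD. No detection call was used here, and levels of different probe sets are not compared. Vehicle replicates 3 and 5 stand apart from the other arrays in this series. They had the lowest array quality weights in limma (0.458 and 0.339, against 0.857 to 2.01 for the others). Results on the members that rest on them are also given with these arrays left out, singly or together. No such values are given for the gene lists further below. Some listed genes were highest in these mice, such as Padi4 in replicate 3 (2.51 SDs) and Trem1 in replicate 5 (2.01 SDs).

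Sequence upstream of 3 of the ligand genes is shown because Cxcl1, Cxcl2 and Cxcl3 lie near each other on chromosome 5 and share a kB-type element. The search used GGG, any 2 bases, then TTTCC, on both strands of the 250 bases before the start of each gene, in RefSeq windows of GRCm38.p6. Of 32851 such windows, 1.41% held the motif. Windows were found for 7 of the 9 members, all but Cxcl5 and Csf3. The 120 bases before the start follow, 5′ to 3′ on the plus strand, with motif matches in capitals.
Cxcl1, chr5:90891125-90891244: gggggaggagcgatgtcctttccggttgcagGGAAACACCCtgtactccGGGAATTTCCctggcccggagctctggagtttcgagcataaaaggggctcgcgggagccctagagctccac
Cxcl2, chr5:90903779-90903898: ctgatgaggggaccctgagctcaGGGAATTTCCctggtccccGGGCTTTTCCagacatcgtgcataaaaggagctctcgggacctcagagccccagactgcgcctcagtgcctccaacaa
Cxcl3, chr5:90785981-90786100: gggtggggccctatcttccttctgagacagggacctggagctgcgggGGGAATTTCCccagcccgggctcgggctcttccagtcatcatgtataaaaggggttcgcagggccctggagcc
The same 10 letters, GGGAATTTCC, stood in all 3, beginning at position -71 in Cxcl1, -97 in Cxcl2 and -73 in Cxcl3, counted from the start of the gene. That exact run was present in 28 of the 32851 windows (0.0852%). Cxcl1 had a further match on the opposite strand at -89 to -80, GGGTGTTTCC, and Cxcl2 a further one at -78, GGGCTTTTCC. The windows of Cxcr2, Csf3r, Cxcl12 and Cxcr4 had no match to these letters. A match describes the sequence only, and binding was not measured here.

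For each of the 5 ligands both groups held mice above and below the gene's mean, and no difference with treatment passed the test. The chemokine Cxcl1 (KC) was at -0.42, 0.52, -1.90, -0.57 and 1.56 SDs in vehicle replicates 1 to 5, and at 0.95, 0.14, 0.82, -0.50 and -0.59 in maslinic acid replicates 1 to 5. Vehicle mice held the lowest and the highest value, replicates 3 and 5, and all maslinic acid values lay between these. The spread was 1.80 times as large in vehicle mice, while 81.7% of the 6739 genes with 10 distinct values also had the larger SD in that group. Cxcl2, a Cxcr2 ligand made in quantity by macrophages, was at -0.00, 0.45, -1.49, -0.44 and 1.82 in vehicle and at 1.30, -0.93, 0.26, -0.47 and -0.49 with maslinic acid. Its extremes were the same vehicle arrays as for Cxcl1, with maslinic acid replicate 1 second from the top.

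Cxcl3, the third chemokine of the cluster, was at 1.19, 0.68, -1.62, 0.21 and -0.18 in vehicle and at 1.77, -0.95, -0.33, -0.34 and -0.43 with maslinic acid. One maslinic acid mouse, replicate 1, had the highest value of all, and the other 4 of its group lay below the gene's mean. Cxcl5 (LIX), which stromal and epithelial cells make, was at 0.65, 1.52, -0.90, -0.96 and 0.99 in vehicle and at 1.06, -0.78, 0.29, -0.87 and -0.99 with maslinic acid. Each group held both high and low mice, and the groups overlapped over nearly their whole range. Csf3 was at 0.05, 0.21, -0.90, -1.05 and 1.30 in vehicle and at 2.09, -0.51, -0.01, -0.49 and -0.70 with maslinic acid. Maslinic acid replicate 1 was again the highest mouse, and vehicle replicates 3 and 4 were the lowest.

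**Figure D1:**
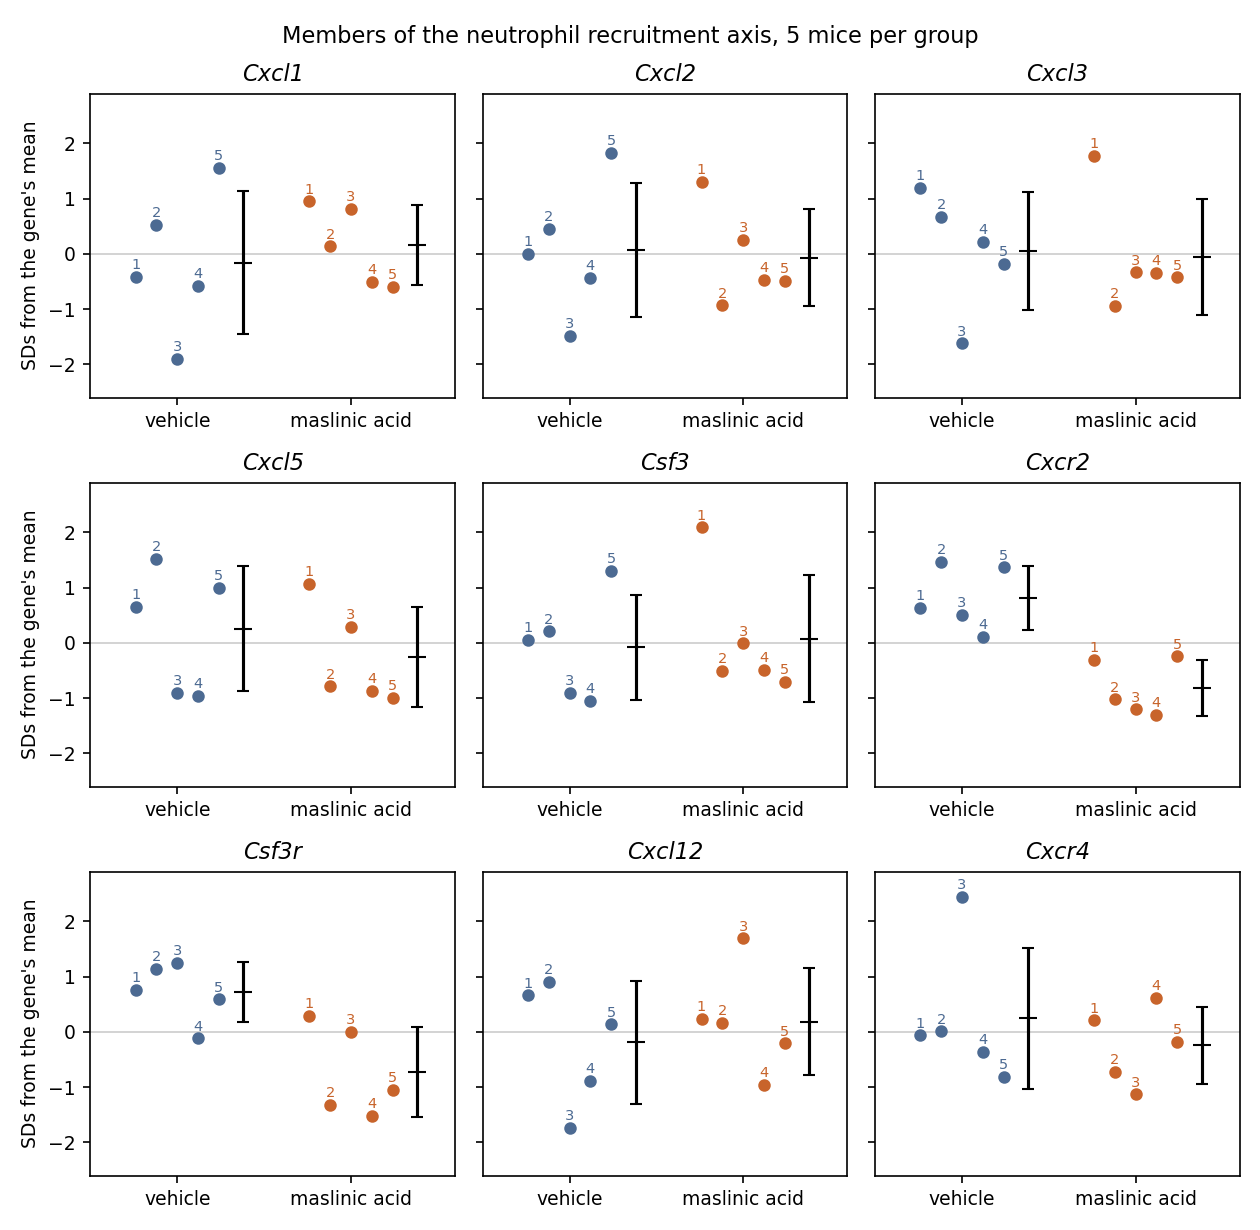
Each panel shows 1 gene, with the array's value in SDs from that gene's mean over 10 arrays on the vertical axis and the groups on the horizontal axis. Numbered points are replicates 1 to 5, and black bars give the group mean ± SD (n = 5); the groups overlap in every panel except Cxcr2, where the maslinic acid mice (-1.30 to -0.24) lie below the vehicle mice (0.10 to 1.47).

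The receptors gave another picture. Cxcr2, the neutrophil receptor for these chemokines, was at 0.63, 1.47, 0.51, 0.10 and 1.36 in vehicle mice and at -0.31, -1.02, -1.20, -1.30 and -0.24 in maslinic acid mice. All 5 maslinic acid values lay below all 5 vehicle values, and in deposited units the groups ran from 8.202239 to 8.202404 and from 8.202458 to 8.202671. The groups of 1 member of 9 did not overlap, in a comparison where 0.735% of genes had groups that did not overlap and were lower with maslinic acid. Csf3r, the G-CSF receptor that sustains neutrophil production and survival, was at 0.75, 1.14, 1.24, -0.12 and 0.59 in vehicle and at 0.28, -1.32, -0.00, -1.52 and -1.05 with maslinic acid. Here 3 of 5 maslinic acid mice were below the lowest vehicle mouse, and maslinic acid replicates 1 and 3 lay within the vehicle range.

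The question of the study's contrast was whether maslinic acid changed these genes in arthritic mice. No member passed the test: limma, fitted on all 39993 probe sets with Benjamini-Hochberg adjustment, called 0 of 9 members against 0.0% of all genes. At an unadjusted p under 0.05 there were 2 members, Cxcr2 and Csf3r, both lower with maslinic acid, and 0 higher. Among all genes 8.85% had such a p, 4.55% lower and 4.3% higher. The exact Wilcoxon test had 2741 probe sets at an unadjusted p under 0.05, against 3617 in limma. It called 0 after adjustment, but its smallest possible p with 5 mice per group is 0.00794. Such a p passes adjustment over 39993 probe sets only if very many share it, so this 0 adds little. Since the receptors' low values were known when the members were chosen, the count of 2 members is a description.

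For Cxcr2, g was -2.71 (95% CI -4.39 to -0.96, n = 5 per group; exact permutation p = 0.00794, the smallest possible; limma p = 0.00102, adjusted p = 0.418). Leaving out single arrays gave -3.23 to -2.44, and leaving out vehicle replicates 3 and 5 together gave -2.36. After quantile normalization of the table it was -0.52, so that the size of the Cxcr2 difference depended on how arrays were scaled; with arrays centred on their medians it was -2.30. For Csf3r, g was -1.89 (95% CI -3.30 to -0.41; exact permutation p = 0.0238; limma p = 0.00836, adjusted p = 0.476). It ran from -2.50 to -1.66 without single arrays, and was -1.53 after quantile normalization, -1.98 with arrays centred and -1.50 without vehicle replicates 3 and 5.

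The ligands had g between -0.46 and 0.28, with adjusted p of 0.808 or more in limma. Cxcl1 was at 0.28 (95% CI -0.86 to 1.40) and Cxcl2 at -0.12 (-1.23 to 1.01). Cxcl3 was at -0.09 (-1.21 to 1.03) and Csf3 at 0.13 (-0.99 to 1.25). Cxcl5 was at -0.46 (-1.59 to 0.70), the only ligand whose sign stayed the same whichever array was left out (-0.81 to -0.19). The intervals reach down to -1.59 and up to 1.40 within-group SDs, so differences within these limits are not excluded. The signs of Cxcl1, Cxcl2, Cxcl3 and Csf3 turned when single arrays were left out. The fitted Cxcr2 value lay outside each ligand's interval. The upper end of the Cxcr2 interval (-0.96), however, lay inside those of Cxcl2, Cxcl3, Cxcl5 and Csf3, and the difference between receptors and ligands was not tested. The median g was -0.12 over the 9 members and 0.23 over genes with 10 distinct values.

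**Figure D2:**
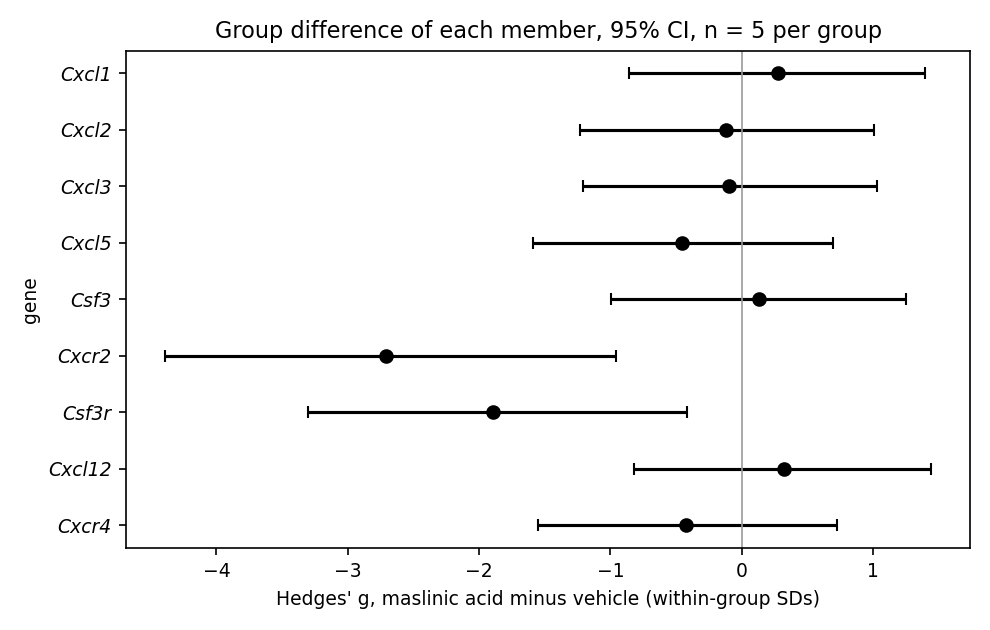
The horizontal axis gives Hedges' g, maslinic acid minus vehicle, in within-group SDs, and the vertical axis lists the 9 genes. Points are estimates and bars their 95% confidence intervals (n = 5 per group); the intervals of Cxcr2 (-4.39 to -0.96) and Csf3r (-3.30 to -0.41) lie below 0, and those of the other 7 genes include 0.

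The ligands went up and down together from mouse to mouse. Over the 10 arrays all 10 pairs of ligands were positively correlated, with Pearson r from 0.47 (Cxcl1 and Cxcl3) to 0.89 (Cxcl2 and Csf3). Of the 36 pairs among the 9 members, 5 passed a permutation test adjusted over all 36, and all 5 were pairs of ligands. These were Cxcl2 with Csf3 (r = 0.89, rho = 0.84, permutation adjusted p = 0.0175 and 0.0328), Cxcl1 with Cxcl2 (r = 0.89, rho = 0.85, permutation adjusted p = 0.0175 and 0.0328), Cxcl5 with Csf3 (r = 0.80, rho = 0.92, permutation adjusted p = 0.0229 and 0.0198), Cxcl2 with Cxcl5 (r = 0.81, rho = 0.78, permutation adjusted p = 0.0253 and 0.0493) and Cxcl1 with Csf3 (r = 0.78, rho = 0.87, permutation adjusted p = 0.0471 and 0.0328). The same 5 pairs passed when each group's mean was subtracted first, with exact permutation within groups. Csf3 lies outside the chromosome 5 cluster of chemokine genes. Some genes outside the set followed Cxcl1 as closely as the ligands did. Among the other CXC chemokines listed below, r with Cxcl1 ran from -0.33 (Ppbp) to 0.88 (Cxcl16). The share of such pairs among all genes was not computed, so varying together is not shown to be particular to the ligands.

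Some mice were high or low for the whole set. All 5 ligands were below their own means in vehicle replicate 3, and all 5 were above in maslinic acid replicate 1 and vehicle replicate 2. Maslinic acid replicates 4 and 5 had all 5 ligands below their means. Leaving out the 2 arrays farthest from the median of the pair's first gene kept all 10 ligand pairs above 0, with r from 0.32 to 0.91. With 8 arrays 1 pair still passed, Cxcl5 with Csf3 (r = 0.91, exact permutation adjusted p = 0.0152). Without vehicle replicates 3 and 5 together the ligand pairs ran from 0.32 to 0.91 and 0 pairs passed (lowest exact permutation adjusted p = 0.0606). The size of r changed little for most of the 5 pairs that had passed. Without vehicle replicates 3 and 5 it was 0.91 for Cxcl2 with Csf3, 0.84 for Cxcl2 with Cxcl5, 0.75 for Cxcl1 with Csf3, 0.74 for Cxcl5 with Csf3 and 0.73 for Cxcl1 with Cxcl2. That is near or above the value over 10 arrays for Cxcl2 with Csf3, Cxcl2 with Cxcl5 and Cxcl1 with Csf3. It is lower for Cxcl5 with Csf3 (0.80 over 10 arrays) and for Cxcl1 with Cxcl2 (0.89 over 10 arrays). These tests had 8 arrays in place of 10, and whether the lost calls came from fewer arrays or from these mice was not tested.

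The receptors correlated with each other over the 10 arrays (r = 0.78, rho = 0.78, permutation adjusted p = 0.0550 and 0.0493), and at r = 0.75 without the 2 arrays farthest from the median. With group means subtracted it was 0.39 (exact permutation adjusted p = 0.356). Between ligands and receptors r ran from 0.04 (Cxcl1 and Csf3r) to 0.61 (Cxcl5 and Csf3r) over 10 pairs, and 0 passed. With group means subtracted these pairs ran from 0.27 to 0.64, with Cxcl1 and Cxcr2 at 0.50 and Csf3 and Cxcr2 at 0.62, and 0 passed. The pooled range depended on vehicle replicates 3 and 5: without them it ran from -0.02 to 0.86, with Cxcl5 and Csf3r the highest (r = 0.86, exact permutation adjusted p = 0.0606). The difference between ligand pairs and ligand-receptor pairs was not tested. Vehicle replicate 3 was lowest or near lowest for every ligand, yet the highest mouse for Csf3r. Its Cxcr2 was 0.51 SDs above the mean, although among vehicle mice only replicate 4 was lower (0.10). Maslinic acid replicate 1 had every ligand at 0.95 or more and Cxcr2 at -0.31. Within the maslinic acid group, however, only replicate 5 was higher for Cxcr2 (-0.24), and replicate 1 was the highest for Csf3r (0.28). Within its group replicate 1 was thus high for ligands and receptors alike.

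**Figure D3:**
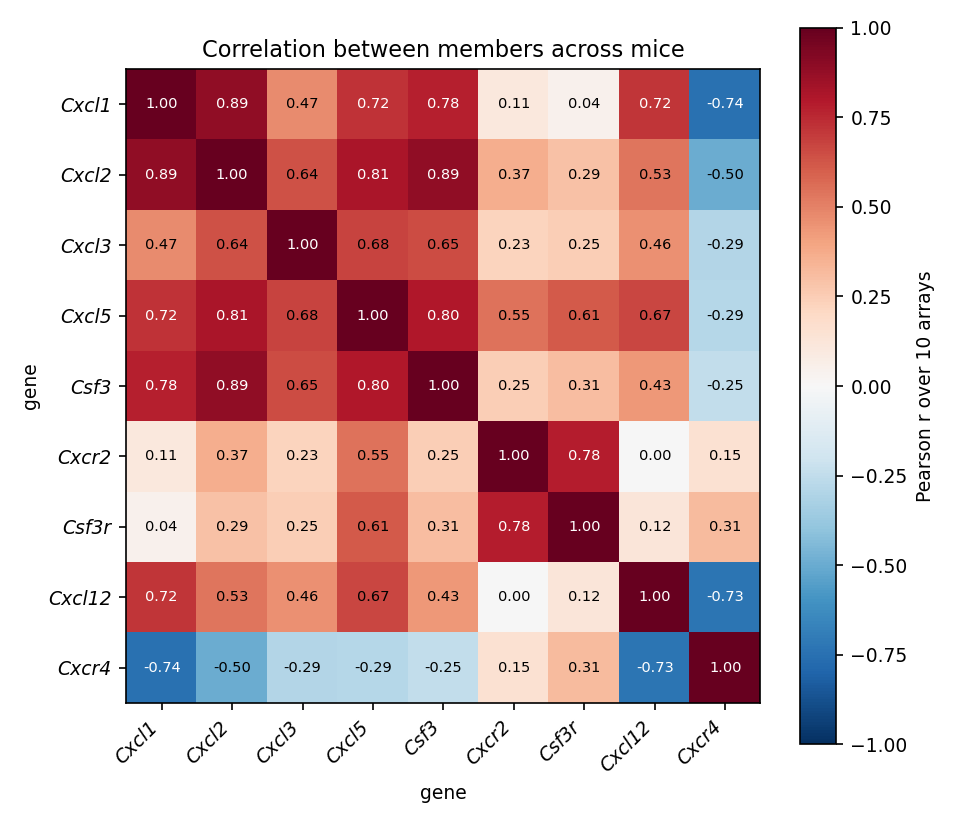
Each cell gives Pearson r over the 10 arrays for a pair of genes, by the colour scale from -1 to 1 and the printed value. The block of the 5 ligands at upper left runs from 0.47 to 0.89, while their values with Cxcr2 and Csf3r run from 0.04 to 0.61.

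**Figure D4:**
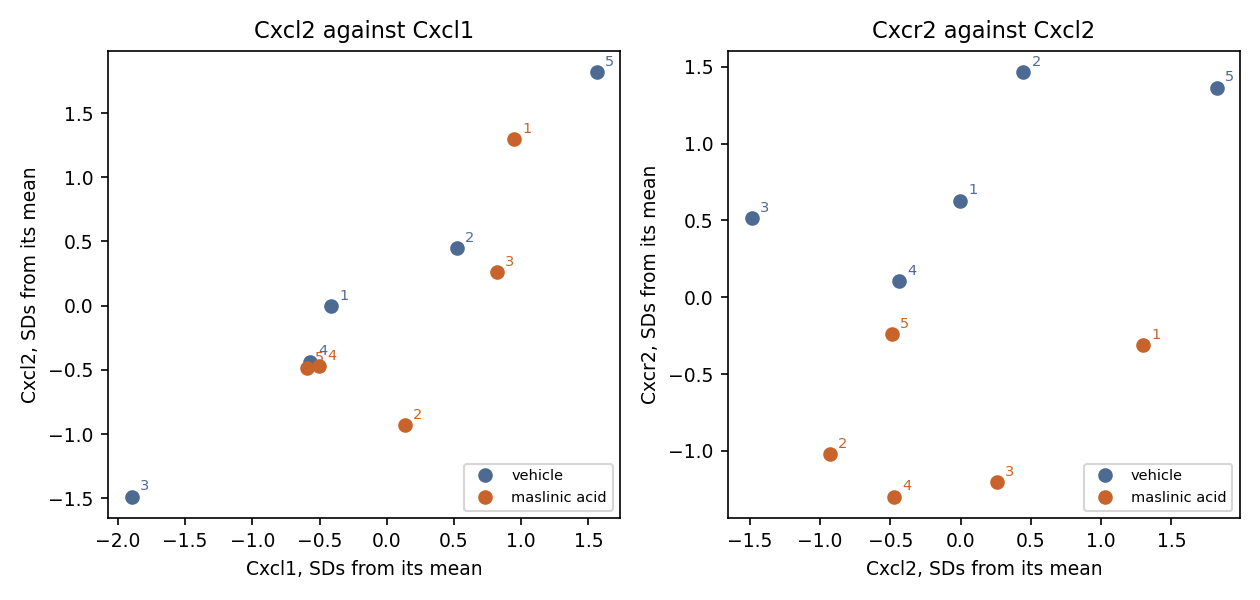
The left panel plots Cxcl2 against Cxcl1 and the right panel Cxcr2 against Cxcl2, in SDs from each gene's mean, with replicate numbers beside the points. Mice of both groups lie along 1 line on the left (r = 0.89), and on the right the groups separate on the vertical axis only (r = 0.37).

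Cxcl12, the marrow-retention chemokine that fibroblasts of many tissues also make, was at 0.66, 0.90, -1.74, -0.89 and 0.14 in vehicle and at 0.24, 0.16, 1.69, -0.95 and -0.21 with maslinic acid. The groups overlapped throughout, and g was 0.32 (95% CI -0.82 to 1.44; limma adjusted p = 0.872). Its sign turned after quantile normalization (-0.93) and without vehicle replicate 3 (-0.017) or maslinic acid replicate 3 (-0.0046). Its receptor Cxcr4, found on marrow and ageing neutrophils and on many lymphocytes, was at -0.06, 0.01, 2.44, -0.36 and -0.81 in vehicle and at 0.21, -0.72, -1.13, 0.61 and -0.18 with maslinic acid. Vehicle replicate 3 stood far above the other 9 mice, and without it g went from -0.43 (95% CI -1.55 to 0.72; limma adjusted p = 0.824) to 0.10. Cxcl12 and Cxcr4 were opposed over the 10 arrays (r = -0.73, rho = -0.45, permutation adjusted p = 0.0665 and 0.362). Without the 2 arrays farthest from the median of Cxcl12, vehicle replicate 3 and maslinic acid replicate 3, r was -0.20. Without vehicle replicates 3 and 5 it was -0.56 (exact permutation adjusted p = 0.272). With group means subtracted it was -0.72 (exact permutation adjusted p = 0.109). The size of r thus depended on which mice were kept, and it passed in none of these settings. Cxcl12 correlated with Cxcl1 at 0.72 (rho = 0.67, permutation adjusted p = 0.0728 and 0.134) and with Cxcr2 at -0.00.

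Cxcl1 and Cxcl12 could be read on 3 probe sets each, and the other 7 members on 1. For Cxcl1 the probe set used had a mean of 7.77, just above the next at 7.38, and its name carries the suffix that the array maker gives to probes shared with other sequences. Its range over the 10 arrays was 0.00127, against 0.185 and 0.441 for the other probe sets, a ratio of up to 348 between readings of 1 gene. The 3 readings nevertheless ordered the mice alike, with r from 0.89 to 1.00 and rho from 0.94 to 0.99, and g was 0.28, 0.30 and 0.36. Spread in deposited units is therefore no measure of how much a gene varied. On the other Cxcl1 probe sets r with Cxcl3 was 0.75 on each, higher than the 0.47 on the probe set used. For Cxcl12 the used probe set (mean 11.65) and the next (11.25) correlated at 0.91, and the dimmest, with 5 distinct values, correlated with them at 0.21 and gave g = -0.86.

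**Figure D5:**
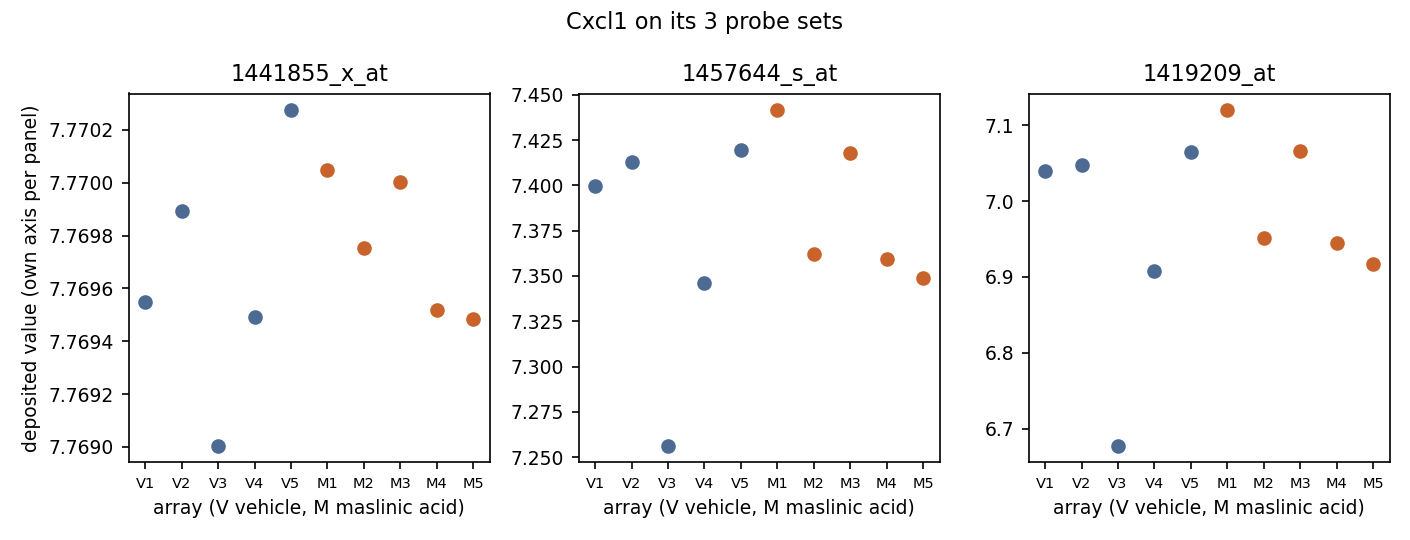
The 3 panels show the deposited value of Cxcl1 on each of its probe sets for the 10 arrays (V vehicle, M maslinic acid), each with its own vertical axis that does not start at 0. Vehicle replicate 3 is lowest in all panels, although the axes span ranges of 0.00127, 0.185 and 0.441.

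Among 15 genes that induce ELR chemokines and G-CSF or transmit that induction, 13 were measured, 5 with higher and 8 with lower means, and 0 passed over all probe sets. Nfkbiz, the IkB-zeta cofactor that interleukin-1 and interleukin-17 use, had the lowest p (g = 1.31, 95% CI -0.01 to 2.56; limma adjusted p = 0.548), followed by the interleukin-17 adaptor Traf3ip2 (0.98, -0.26 to 2.17). The inducing cytokines were on the other side of 0. Il1b was at -0.60 (-1.73 to 0.58), Il6 at -0.48 (-1.61 to 0.68), Tnf at -0.45 (-1.58 to 0.70) and Il17a, with 8 distinct values, at -0.69 (-1.83 to 0.50). The list's median was -0.30.

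Other CXC chemokines were higher in 5 and lower in 5 of 10 (median g = -0.08), and 0 passed. Of these 10, 2 had an unadjusted p under 0.05, both platelet chemokines with lower values, where 4.55% of all genes were lower with such a p. Ppbp, whose product is cut to a Cxcr2 ligand, was at -1.62 (95% CI -2.96 to -0.22, limma adjusted p = 0.488). Pf4, platelet factor, was at -1.48 (-2.77 to -0.12, limma adjusted p = 0.508). Both also stand in the platelet marker list below. Of 5 other CXC and atypical receptors measured, 2 were higher and 3 lower; the endothelial chemokine-binding receptor Ackr1 was at 0.62 (-0.56 to 1.76). Of 6 other colony-stimulating factors and receptors, 4 were higher and 2 lower, and none of these 6 had an unadjusted p under 0.05; the macrophage factor Csf1 was at 0.79 (-0.41 to 1.96).

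Receptors that guide neutrophils to other attractants were lower in 4 of 5 measured, with a median g of -1.13 against -0.00 over all genes, though 0 had an unadjusted p under 0.05. Ccr1, a receptor for CC chemokines, was at -1.22 (95% CI -2.46 to 0.07) and the formyl peptide receptor Fpr2 at -1.16 (-2.38 to 0.12). The complement receptor C5ar1 was at 0.03. Genes that act behind Cxcr2 were lower in 10 of 15 measured (median -0.54). Fgr, a Src family kinase of myeloid cells, was at -1.48 (-2.78 to -0.12; limma adjusted p = 0.506) and Rgs18, which shortens G protein signals in platelets and myeloid cells, at -1.24 (-2.48 to 0.06). Genes behind Csf3r were higher in 5 of 7 measured (median 0.33), with the kinase Tyk2 at -1.28 (-2.52 to 0.03) and the transcription factor Cebpb at 0.90 (-0.33 to 2.08).

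Neutrophil marker lists had lower medians with maslinic acid, as the receptors did. Markers of mature neutrophils were lower in 7 of 10 measured (median g = -0.57, against -0.00 over all genes). Of the 10, 1 had an unadjusted p under 0.05, where 4.55% of all genes were lower with such a p. It was Padi4 (-1.30, 95% CI -2.55 to 0.02), which modifies histones in neutrophil nuclei. A count of 1 in so short a list is a description only. Trem1, an activating receptor of neutrophils and monocytes, was at -1.17 (-2.39 to 0.11). The 3 markers with higher means were the decoy receptor Il1r2 at 1.02 (-0.23 to 2.22), the gelatinase Mmp9 at 1.01 (-0.24 to 2.20) and G0s2 at 0.37 (-0.78 to 1.49). Their mean level in SDs ran from -0.18 to 0.58 in vehicle and from -0.38 to 0.09 in maslinic acid mice, so that the groups overlapped, unlike those of Cxcr2. The abundant neutrophil proteins S100a8 and S100a9 took only 2 distinct values each over the 10 arrays, so they order few of the mice. Both are nevertheless counted among the 7 lower markers, at -0.57 and -0.93. The list's median lay between S100a8 and Mmp8, so the count and the median rest partly on these coarse values. Ly6g was not measured by a probe set of its own.

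Genes of granules made in neutrophil precursors were lower in 9 of 10 (median g = -0.80), 3 with an unadjusted p under 0.05, where 4.55% of all genes were lower with such a p. The granule protease Ctsg was at -2.28 (95% CI -3.82 to -0.68; limma adjusted p = 0.455) and the protease Prtn3 at -1.66 (limma adjusted p = 0.488), while myeloperoxidase, Mpo, was at -0.29 (-1.41 to 0.84). The groups did not overlap for Ctsg and for the lectin Fcnb (-1.14), 2 of 10 where 0.735% of all genes were lower without overlap. Fcnb was picked out after its values were seen. Both were highest in vehicle replicate 3 (Ctsg 1.98 and Fcnb 2.70 SDs), an array of low weight. The neutrophil marker lists were chosen with earlier results of these data known, so these counts are descriptions. The precursor list's mean level ran from -0.56 to 1.12 in vehicle, with replicate 3 the highest and replicate 5 the lowest, and from -0.62 to 0.05 with maslinic acid. Lcn2, the 1 gene of the list with a higher mean, was at 1.14. The part of neutrophil number in the Cxcr2 and Csf3r values was not tested.

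The marker lists of other cells are set here beside the median g of 0.23 over genes with 10 distinct values. Platelet markers, which include the Ppbp and Pf4 already given, were lower in 6 of 6 measured (median g = -1.12). Their mean level ran from -0.35 to 1.61 in vehicle and from -1.31 to 0.14 with maslinic acid. Synovial fibroblast markers, among the sources of the ligands, were higher in 12 of 12 (median 0.52; -0.86 to 0.17 and 0.01 to 0.94), with the mesenchymal receptor Pdgfrb at 1.52 (95% CI 0.15 to 2.83; limma adjusted p = 0.496) and the lining gene Prg4, lubricin, at 0.34. Muscle markers were higher in 7 of 7 (0.59; -1.99 to 0.70 and -0.66 to 1.00), adipocyte markers in 4 of 4 (0.87; -1.44 to 0.31 and -0.54 to 1.46) and osteoblast markers in 3 of 3 (1.18; -1.71 to 0.26 and 0.16 to 1.00). Macrophage markers were higher in 7 of 8 (0.29) and endothelial ones in 6 of 7 (0.33). Lep, the adipocyte hormone leptin, was at 1.27, and Ibsp, a bone matrix protein, at 1.46. T cell markers were lower in 4 of 5 (-0.88). Among them Cd4, which took 7 distinct values, was at -2.35 without overlap between the groups. Over all genes 0.735% were lower without overlap, and Cd4 was named for its low p within its list. B cell markers were lower in 2 of 3 (-0.28) and mast cell markers in 2 of 5 (0.06). Erythroid markers were higher in 2 of 2 (0.17) and keratinocyte markers in 2 of 3 (0.60). None of these markers passed over all probe sets. The part of tissue make-up in the values of the members was not tested.

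Genes with patterns most like those of a ligand and of a receptor were taken by the highest Pearson r over the 10 arrays, among the 6531 genes left of the 6739 with 10 distinct values once members and clone-named genes were set aside. Having been picked as the highest, they carry no test. Most like Cxcl1 were Cd14, the lipopolysaccharide co-receptor (r = 0.94, rho = 0.94), Ggct, an enzyme of glutathione turnover (0.93, 0.99), Il1r1, the interleukin-1 receptor (0.93, 0.92), Ccl2, the monocyte chemokine (0.92, 0.95), and the zinc finger gene Zfp811 (0.92, 0.83). Their g lay between -0.18 and 0.52. Most like Cxcr2 were Atg3, an autophagy enzyme (r = 0.92, rho = 0.94), Ppp1r3d, a phosphatase subunit (0.91, 0.90), Prom1 (0.90, 0.85), Ltb, lymphotoxin beta (0.89, 0.89), and Mcemp1, a membrane protein of myeloid cells (0.89, 0.83). With group means subtracted the r of these 5 with Cxcr2 ranged from 0.57 to 0.85, and those of the Cxcl1 set from 0.93 to 0.97.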

How the data were processed

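RNA of 10 synovium samples was measured on 10 arrays, each 1 mouse, grouped by sample title. The authors deposited 1 table of 39993 probe sets, used here as a score because its scale is not settled; R 3.2.1 is named in the submitters' processing notes. How background was corrected and arrays were normalized and summarized is not stated there. Values carry 6 decimals, and no column was left out. Per the platform annotation 34202 probe sets named 1 gene, 931 several and 4860 none; 34028 Entrez identifiers matched RefSeq's genes.

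The comparison was fitted with lmFit and eBayes (limma 3.58.1, R 4.3.3) on all probe sets as deposited, two-sided, adjusted over all of them at 0.05; the prior degrees of freedom were 0.503. Single values were also tested over all 252 assignments of the arrays, where the smallest p is 0.00794. Correlations used 100000 permutations, 14400 within groups, or all orders of 8 arrays. Python 3.11.15, scipy 1.17.1 and Biopython 1.88 served for the rest. Tested on simulated data (39993 probe sets, the same groups), limma recovered 10% of changes of 2 SD, 66% of 4 SD, 96% of 6 SD and 100% of 8 SD, with 9 false calls. Replicates are labelled as biological.

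Named genes were the 9 members, the 5 genes most like Cxcl1 and the 5 most like Cxcr2, the 2 lowest-p genes of every list, and a fixed set (Il1b, Il6, Tnf, Il17a, Mpo, Ppbp, S100a8, S100a9, Ly6g); in lists of other cell types most are left to the counts, and C5ar1, Fcnb, G0s2, Il1r2, Lcn2, Mmp9 and Prg4 were chosen after their values were seen. Members and lists were chosen with earlier results of these data known. Alternatives were other scalings, variance priors, weights, filters, probe sets, tests and arrays left out.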

Additional observations from a re-analysis of the deposited data

Results flagged for a closer look

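Within groups of 5, 18 sets of values (9 genes in each group) were examined for a mouse far from the rest of its group by Dixon's ratio, the gap to the nearest value over the whole range, against its 95% critical value; chance gives about 5% of such sets. Maslinic acid replicate 1 was far above its group for Cxcl3 (0.774) and for Csf3 (0.752). Vehicle replicate 3 was far above its group for Cxcr4 (0.749). Without maslinic acid replicate 1, g of Csf3 went from 0.13 to -0.41, and that of Cxcl3 from -0.09 to -0.61.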

How the results depend on the processing

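No probe set passed in limma with all arrays, and 0 passed under 18 of 20 alternatives. Among these was the exact Wilcoxon test, which could hardly pass any with 5 mice per group. After quantile normalization 8 passed, and leaving out single arrays gave 0 to 1. Cxcr2, Csf3r and Cxcl5 kept their direction under all alternatives run, and no member passed under any (lowest adjusted p 0.300, for Cxcr2). After quantile normalization Cxcl1 was at -0.060 and Cxcl12 at -0.93. Without single arrays g ran from -0.12 to 0.79 for Cxcl1, from -0.51 to 0.31 for Cxcl2, from -0.61 to 0.15 for Cxcl3, from -0.41 to 0.46 for Csf3, from -0.017 to 0.58 for Cxcl12 and from -0.66 to 0.10 for Cxcr4, so their signs are not settled; the cause was not tested. Cxcl12 was at -0.035 without vehicle replicates 3 and 5 together and at -0.86 on its dimmest probe set. Replicate numbers are shared between groups, and r of same-numbered deviations ran from -0.39 to 0.35. For vehicle replicates 1 and 4 the same-numbered maslinic acid array was the most alike (0.35 and 0.34, against at most 0.25 and 0.089 for other numbers). For vehicle replicates 2, 3 and 5 another number was more alike. A pairing by number is thus not shown, and it was not tested. With the replicate number as a block 0 probe sets passed, and g was -3.27 for Cxcr2 and -2.28 for Csf3r. Of 36 pairs of members, 5 passed over 10 arrays, 8 by Spearman's rho, 5 with group means subtracted, 1 without the 2 farthest arrays and 0 without vehicle replicates 3 and 5; the last settings have fewer arrays.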
